A study of Mus musculus with 52 samples.

Results

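The genes described here are 8 mouse genes that mark or serve the posterior lobe of the pituitary (the neurohypophysis): the transcription factors Rax, Nkx2-1 and Lhx2, the neurohormone precursors Avp and Oxt, and the glial genes Gfap, S100b and Vim. They were chosen by name and are 8 of the 49585 annotated genes with a transcript in the libraries, of which 21885 are protein coding. Labels name no litter or culture for the replicates, so p-values measure the spread between pools of mice or samples, part of which may be technical. The study asked how beta-catenin signaling sets the properties of endothelial cells (ECs) in brain vessels with and without a blood-brain barrier, and deposited 52 samples in 26 groups of 2. The 24 sorted RNA-seq libraries came from cerebellum, anterior pituitary and posterior pituitary of adult male mice, and in each tissue the GFP-positive cells (ECs, marked by a Tie2-GFP transgene) and the GFP-negative cells (all other viable cells) were collected. WT mice were Tie2-GFP, and beta-catenin stabilized mice were Tie2-GFP; Pdgfb-CreER; BcatEx3fl, in which a tamoxifen-inducible Cre driven by Pdgfb, an EC gene, removes exon 3 of 1 Ctnnb1 allele. The stabilized mice also received 100 µg of 4-hydroxytamoxifen (4HT) at postnatal day 10, so that the stabilized allele, the Cre transgene and the 4HT cannot be told apart in these libraries. Each pituitary replicate pooled 20 to 30 mice between postnatal days 30 and 90.

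A further 16 libraries came from RiboTag mice, in which Cre-recombined cells carry an epitope-tagged ribosomal protein. They hold input RNA (whole tissue) and bound RNA (precipitated with the tagged EC ribosomes) of cerebral cortex and choroid plexus of adult males, 6 to 8 weeks old, either RiboTag; Pdgfb-CreER (WT) or RiboTag; Pdgfb-CreER; BcatEx3fl (stabilized), with the choroid plexi of 3 to 4 animals pooled. Here both genotypes carried the Cre and were given 4HT. The last 12 samples are ATAC-seq peak lists of the sorted GFP-positive cells of the same 3 tissues and both genotypes. One RNA library, stabilized anterior pituitary GFP-positive replicate 2, is anterior by its title and source name but posterior by its tissue label. It was taken as anterior. Without it, the members called stayed as they were in 27 of the 30 comparisons of sorted libraries, and the 3 others are given where they come up.

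Pituicytes are the resident glia of the posterior lobe. They surround the axon endings of hypothalamic neurons, whose cell bodies lie outside the gland and which make vasopressin (Avp) and oxytocin (Oxt) and release them into fenestrated capillaries. Rax, Nkx2-1 and Lhx2 are homeodomain transcription factors of the hypothalamic and infundibular floor, where they are needed for the posterior lobe to form, and pituicytes and the related tanycytes go on expressing such genes in the adult. Gfap and Vim encode intermediate filaments of glia, with Vim also present in ECs and other mesenchymal cells, and S100b encodes a calcium-binding protein of astrocytes that is also found in folliculostellate cells of the anterior lobe.

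Avp and Oxt are neighbouring genes on chromosome 2 that arose by duplication and whose hormones differ at few positions. The stretch of coding sequence that spells each 9-residue hormone shows how alike they are. It is given 5′ to 3′ from the GENCODE M21 transcripts on GRCm38, with the codons that differ in capitals.
Avp: tgctacTTCcagaactgcCCAAGAggc
Oxt: tgctacATCcagaactgcCCCCTGggc
The 27 bases differ at 5 positions in 3 codons, and lie at bases 83 to 109 of the 577-base Avp transcript and at bases 95 to 121 of the 537-base Oxt transcript. Over the whole transcripts, 53 stretches of 75 bases, the read length, were identical between the genes, which is 10.5% of those of Avp and 11.4% of those of Oxt. Reads from these stretches were split between both genes by estimation.

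The genes lie at these places on GRCm38. Rax (ENSMUSG00000024518) is at chr18:65928277-65939787 on the minus strand, and the antisense gene Raxos1 overlaps it. Nkx2-1 (ENSMUSG00000001496) is at chr12:56531958-56536908 on the minus strand, overlapped by Gm26973, and Lhx2 (ENSMUSG00000000247) at chr2:38339281-38369733 on the plus strand, overlapped by Gm13584 and Gm27197. Avp (ENSMUSG00000037727) is at chr2:130580620-130582554 on the minus strand and Oxt (ENSMUSG00000027301) at chr2:130576173-130577054 on the plus strand. Gfap (ENSMUSG00000020932) is at chr11:102887336-102900912 on the minus strand, overlapped by Gm26668, S100b (ENSMUSG00000033208) at chr10:76253853-76261159 on the plus strand, overlapped by Dip2a, and Vim (ENSMUSG00000026728) at chr2:13573927-13582826 on the plus strand. The kit does not mark strand, so reads of a gene and of an overlapping gene on the other strand cannot be told apart where their exons overlap.

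The sorted libraries held 12157485 to 37529274 estimated reads (median 27638900) and the RiboTag libraries 6409013 to 21399125 (median 10036750). The labelled tissue was checked against marker genes. In posterior pituitary GFP-negative cells the 6 markers of the intermediate lobe, which adjoins the posterior lobe and makes melanotropin from Pomc, summed to 27731 to 56472 TPM in the 4 libraries, against 6240 to 16401 TPM in anterior pituitary and 4.30 to 19.6 TPM in cerebellum. TPM is a level divided by transcript length and scaled to the same total in each library. The posterior pituitary libraries thus held RNA of the intermediate lobe at a far higher level than any of the 8 genes. The 10 EC markers summed to 2.53 to 7.06 TPM there and to 1221 to 4594 TPM in posterior pituitary GFP-positive cells. The oligodendrocyte markers summed to 6.96 to 18.2 TPM in posterior pituitary GFP-negative cells and to 1399 to 3505 TPM in those of cerebellum.

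The first comparison asked which of the 8 genes set GFP-negative cells of the posterior pituitary apart from those of the anterior pituitary and the cerebellum. Lhx2 was above 1 TPM in all 4 posterior pituitary libraries and below 0.1 TPM in all 8 others. Rax was read in 3 of the 4 posterior pituitary libraries and in none of the others, but at very unequal levels. Avp and Oxt were read only in the 2 stabilized posterior pituitary libraries. For Gfap, S100b and Vim all 4 cerebellum libraries lay above all 8 pituitary libraries. As these are bulk libraries, fewer cells of a type and less RNA per cell cannot be told apart.

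**Figure D1:**
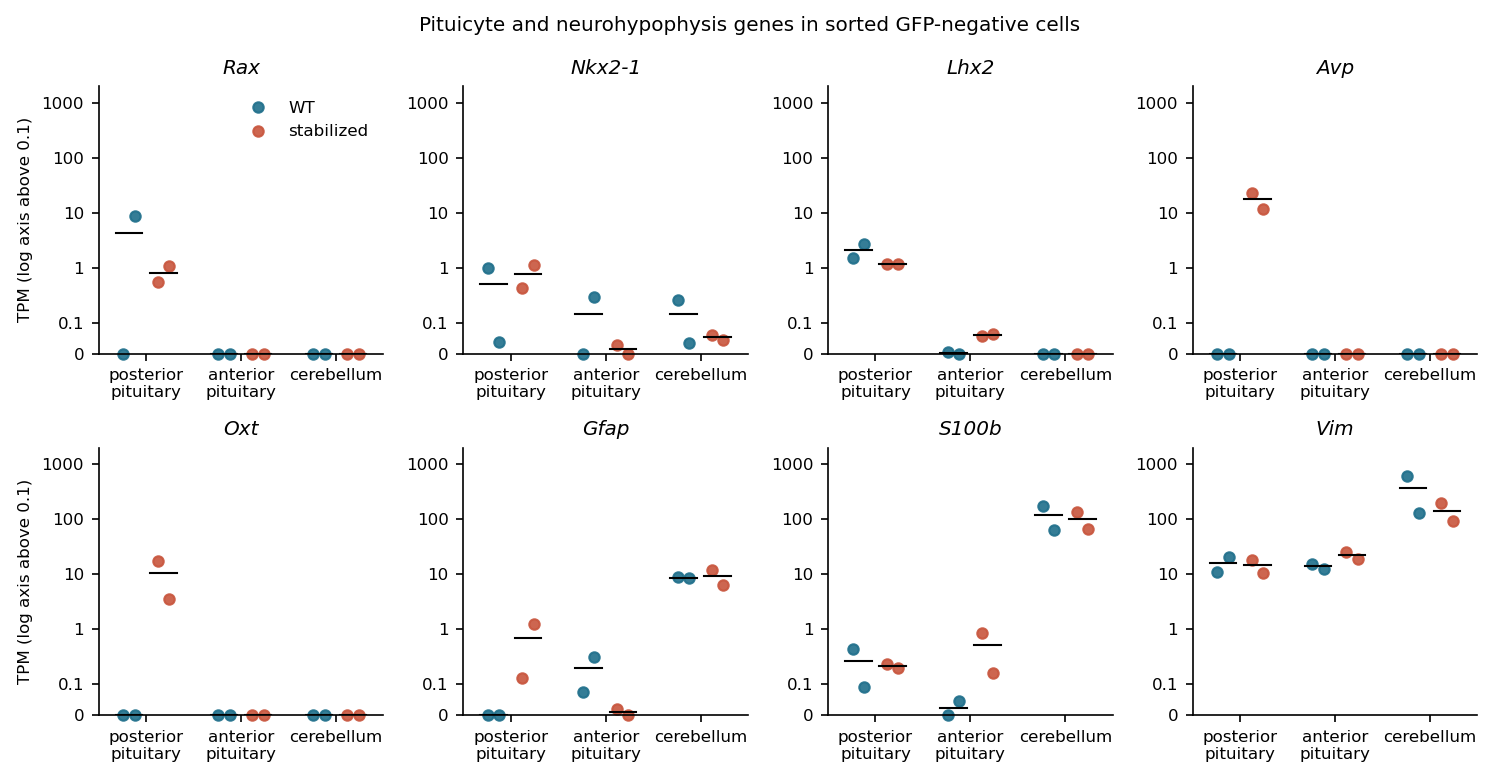
TPM of the 8 genes in the 12 GFP-negative libraries of posterior pituitary, anterior pituitary and cerebellum, on an axis that is logarithmic above 0.1 TPM and linear below. Points are libraries (WT blue, beta-catenin stabilized red), black lines are the means of 2. Lhx2 lies between 1.17 and 2.68 TPM in posterior pituitary and at 0 in cerebellum, while Gfap, S100b and Vim lie above the pituitary libraries in all 4 cerebellum libraries.

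Among the transcription factors, Lhx2 stood at 1.5 and 2.68 TPM in the WT and at 1.195 and 1.17 TPM in the stabilized posterior pituitary libraries. In anterior pituitary it was at 0.005 and 0 TPM (WT) and at 0.056 and 0.064 TPM (stabilized), and in cerebellum no read was assigned to it in any of 4 libraries. The posterior values did not overlap those of either other tissue (exact two-sided permutation test of log2(TPM + 1) over 4 and 4 libraries, p = 0.0286 for each, the smallest that 70 permutations can give). Non-overlap with a higher posterior level was found for 1.59% of genes tested against anterior pituitary and for 6.16% against cerebellum. In reads, WT posterior pituitary had 450 and WT anterior pituitary 1, a ratio of 573 after scaling (95% exact counting interval 102 to 22690).

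In edgeR's quasi-likelihood test none of the 8 genes was called (adjusted p under 0.05 and at least 2-fold) between posterior and anterior pituitary in WT libraries, where 1.04% of 21343 genes were called, and Lhx2 had an adjusted p of 0.278. At an unadjusted p under 0.05 there were 2 of 8, Lhx2 and Gfap, and DESeq2 called 1 of 8, Lhx2 (adjusted p 0.0331), beside 5.92% of all genes. Over both genotypes, the log2 difference of Lhx2 between posterior and anterior pituitary was 7.18 (SE 2.08) with an adjusted p of 0.114, beside 1.94% of all genes called, and DESeq2 gave 0.00563, with 4.9% of genes called. Against cerebellum, with both genotypes, Lhx2 was called, at 898 reads against 0, which is at least 261-fold higher (adjusted p 0.00782), beside 14.4% of all genes called. The adjusted p stayed between 0.0108 and 0.0467 without any 1 of the 8 libraries. In WT libraries alone it was at least 163-fold higher, with an adjusted p of 0.0746, and DESeq2 called it (0.00456), beside 14.6% of all genes.

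Rax was at 0 and 8.76 TPM in the WT and at 0.547 and 1.10 TPM in the stabilized posterior pituitary libraries, and at 0 in the 8 other GFP-negative libraries. The first WT library, the deeper of the pair with 34681485 estimated reads, had no read of Rax, which allows up to 0.0865 CPM (reads scaled to a library total, with no division by length). The second had 197 reads, and the stabilized libraries 34 and 69. The 4 posterior values were not separate from the others (exact two-sided permutation test over 4 and 4 libraries, p = 0.143). With both genotypes together Rax was at least 133-fold higher than in anterior and at least 87.2-fold higher than in cerebellum libraries, and the adjusted p against cerebellum was 0.0998. These bounds include the 197 reads of the second WT library. In stabilized libraries alone they were 47.9-fold and 20.8-fold.

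Nkx2-1 was at 0.992 and 0.037 TPM in the WT and at 0.435 and 1.12 TPM in the stabilized posterior pituitary libraries. Anterior pituitary ranged from 0 to 0.290 TPM and cerebellum from 0.036 to 0.260 TPM, so that the lower WT posterior library lay within both. In reads the posterior libraries held 191 and the anterior ones 22 over both genotypes, a scaled ratio of 11.5 (95% exact counting interval 7.39 to 18.8). The ratio differed by genotype, at 5.54 in WT (87 against 20 reads) and 72.5 in stabilized libraries (104 against 2). The difference from anterior pituitary was not larger than the spread between libraries (exact two-sided permutation test over 4 and 4 libraries, p = 0.0571, and p = 0.114 against cerebellum).

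The neurohormone precursors were split by genotype. Avp was at 0 in both WT posterior pituitary libraries and at 23.1 and 11.8 TPM in the stabilized ones, from 421 and 224 estimated reads. Oxt was at 0 in both WT libraries and at 17.4 and 3.62 TPM in the stabilized ones. Neither had a read in any of the 8 GFP-negative libraries of anterior pituitary and cerebellum. Avp stood above Oxt on the per-length scale in both libraries that held them.

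Against stabilized anterior pituitary, Avp was at least 300-fold and Oxt at least 179-fold higher, and Lhx2 stood at 448 reads against 11, a scaled ratio of 56.8 (95% exact counting interval 31.4 to 115). None of the 8 genes was called in that contrast by edgeR, where 0.0562% of all genes were called. At an unadjusted p under 0.05 there were 3, Avp, Oxt and Gfap, and DESeq2 called 0, beside 0.82% of genes. A fit of these 2 groups alone, without the other 10, called Lhx2 (adjusted p 0.0478), Avp (0.00676) and Oxt (0.0253), beside 2.04% of genes. The permutation test with both genotypes gave p = 0.429 for Avp and for Oxt (exact, two-sided, 4 and 4 libraries), as 2 of the 4 posterior libraries were at 0.

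The glial genes showed the reverse order. Gfap was at 8.78 and 8.58 TPM in WT and at 11.8 and 6.50 TPM in stabilized cerebellum. In posterior pituitary it was at 0 in both WT libraries and at 0.130 and 1.26 TPM in the stabilized ones, and in anterior pituitary it lay between 0 and 0.320 TPM. WT posterior pituitary had 0 reads against 2212 in WT cerebellum, which is at least 681-fold lower (adjusted p 0.0116), and with both genotypes together Gfap was lower in posterior pituitary by -8.66 on the log2 scale (SE 1.68, adjusted p 0.00267). Between the pituitary lobes it did not differ beyond the spread (exact two-sided permutation test over 4 and 4 libraries, p = 0.714).

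S100b was at 177 and 63.6 TPM in WT and 134 and 67.7 TPM in stabilized cerebellum. It was at 0.434, 0.090, 0.239 and 0.200 TPM in the posterior pituitary libraries, in the order WT then stabilized, and at 0, 0.046, 0.868 and 0.160 TPM in the anterior ones. The lobes overlapped, and cerebellum was separate from both, as for Gfap and Vim (exact two-sided permutation test over 4 and 4 libraries, p = 0.0286 for each gene and lobe), beside 4.86% of genes lower without overlap in posterior and 4.55% in anterior pituitary. The log2 difference of WT posterior pituitary from WT cerebellum was -9.10 (SE 1.86, adjusted p 0.00464) and that of WT anterior pituitary -12.65 (SE 2.22, adjusted p 0.0016).

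In TPM, Vim was the most abundant of the 8 in WT posterior and in all anterior pituitary libraries, while Avp was above it in both stabilized posterior ones. It was at 11.1, 20.6, 18.3 and 10.6 TPM in the posterior and 15.4, 12.4, 25.6 and 19.0 TPM in the anterior libraries. The lobes overlapped, with a log2 difference of -0.04 (SE 0.53, adjusted p 1) in WT. The cerebellum libraries were at 606 and 130 TPM (WT) and 194 and 91.3 TPM (stabilized), above both lobes, and the log2 difference of WT posterior pituitary from WT cerebellum was -4.92 (SE 0.62, adjusted p 6.47e-05). In all, 3 of 8 genes (Gfap, S100b and Vim, all lower) were called for posterior pituitary against cerebellum in WT, where 5.31% of all genes were called lower. The same comparison in stabilized libraries called S100b and Vim, and the anterior pituitary against cerebellum called S100b and Vim in WT and Gfap, S100b and Vim in stabilized libraries, where Gfap and Vim were not called without stabilized anterior pituitary GFP-negative replicate 2 (edgeR adjusted p 0.117 and 0.053). DESeq2 added Gfap for WT anterior pituitary (adjusted p 0.0164, beside 11.7% of all genes) and Lhx2, which was higher, for stabilized posterior pituitary (0.0115, beside 15.8%). All of the edgeR calls were lower in pituitary, beside 4.25% (stabilized posterior), 4.1% (WT anterior) and 3.95% (stabilized anterior) of all genes called lower. Calls in either direction made up 7.65% (WT) and 8.56% (stabilized) of genes for posterior and 6.19% and 8.5% for anterior pituitary. Over both genotypes the anterior pituitary was lower in Gfap, S100b and Vim, beside 14.1% of genes called.

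The cerebellum libraries differed from the pituitary ones in many cell types at once. The 12 astroglial genes of a list that excludes the 8 genes summed to 1263 to 9921 TPM in cerebellum, 155 to 334 TPM in posterior and 200 to 301 TPM in anterior pituitary, with none at 0 throughout. The choroid plexus epithelium list rose to 3743 TPM in 1 cerebellum library. The part of these cell types in the Gfap, S100b and Vim differences was not tested.

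Lists of related genes place the 8 in context, beside 1.04% of all genes called between the WT lobes by edgeR and 5.92% by DESeq2. Of 10 further pituicyte and tanycyte genes, 1 was called higher in WT posterior than anterior pituitary and none lower, with a median log2 difference of 0.57 against 0.00 for all genes. The one called was Col25a1, a transmembrane collagen, at 36.6 and 33.7 TPM in WT and 14.3 and 17.1 TPM in stabilized posterior libraries, with a log2 difference of 7.12 (SE 1.01, adjusted p 0.00185). Of 13 tested developmental regulators 1 was called higher, Wnt5a, a signaling ligand of the infundibulum, by 3.90 (SE 0.77, adjusted p 0.0185). Of 10 prohormone-processing genes 1 was called higher, the convertase Pcsk2, by 3.64 (SE 0.70, adjusted p 0.0147), which the intermediate lobe also uses. None of 12 astroglial genes, 9 tested neurohormone partners and receptors, 11 tested intermediate filament genes and 9 tested S100 genes was called between the lobes by edgeR. At an unadjusted p under 0.05 there were 5, 1, 2 and 2 in these lists, and DESeq2 called 1 astroglial gene higher and 1, 2 and 1 genes of the others lower. DESeq2 called 3 of the pituicyte and tanycyte genes higher.

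Against cerebellum the WT posterior pituitary showed a wider split, with 7.65% of all genes called. Of the further pituicyte and tanycyte genes, Col25a1 was called higher, by 5.34 (SE 0.93, adjusted p 0.00142). Cntfr of the same list was called lower, by -4.795 (SE 1.36, adjusted p 0.0389). Of the 12 astroglial genes 11 were called lower, with a median of -7.12 against -0.07 for all genes. Examples were Agt (angiotensinogen) by -13.44 (SE 2.02, adjusted p 0.000488), Aldh1l1 by -10.29 (SE 2.75, adjusted p 0.0268) and Fabp7 by -8.65 (SE 1.66, adjusted p 0.00259). Of the developmental regulators 3 were called higher and 1 lower. Six3 and Six6, homeobox genes of the hypothalamus and pituitary, had 20302 and 3870 reads against 0 in cerebellum, and Fgf10, the growth factor of the infundibulum, had 1565 against 0 (adjusted p 0.0236). Bmp4, another infundibular signal, had 0 reads against 318.

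Of the 10 prohormone-processing genes 6 were called higher and 1 lower than in cerebellum, with a median of 3.33. They included Pcsk1 by 6.04 (SE 1.77, adjusted p 0.0441) and Pam, the enzyme that amidates both Avp and Oxt, by 4.02 (SE 0.43, adjusted p 1.03e-05), while Scg3 was lower by -2.31 (SE 0.50, adjusted p 0.00629). Of 9 tested neurohormone partners and receptors 2 were called higher, Pdyn, whose dynorphin is stored with vasopressin, with 3022 reads against 0, and the vasopressin receptor Avpr1b with 1456 reads against 1. The transcription factor Pou3f2 was called lower, with 0 reads against 3842. Among intermediate filaments Lmna was higher by 2.08 (SE 0.36, adjusted p 0.00118), and Des, Nefl and Synm were lower. Of 9 tested S100 genes 1 was called lower, S100a16, by -3.65 (SE 0.54, adjusted p 0.00027).

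The 4 posterior pituitary libraries were next compared one by one, since Rax, Avp and Oxt differed so much among them. The library with the most Rax (WT replicate 2, 8.76 TPM) had the least Nkx2-1 (0.037 TPM). Lhx2 varied least of the 3 transcription factors, between 1.17 and 2.68 TPM. Intermediate lobe genes were higher in the WT libraries, with Pomc at 53739 and 55689 TPM against 27436 and 41280 TPM in the stabilized ones, and Pax7, the intermediate lobe factor, at 36.7 and 50.4 against 9.23 and 11.3 TPM. Pomc was named after its values were seen. Fgf10 went the other way, at 5.25 and 2.63 TPM in WT and 14.1 and 13.9 TPM in stabilized libraries. Scn7a, a pituicyte sodium channel gene, was at 12.9, 8.93, 13.7 and 24.2 TPM in the same order, higher in both stabilized libraries.

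**Figure D2:**
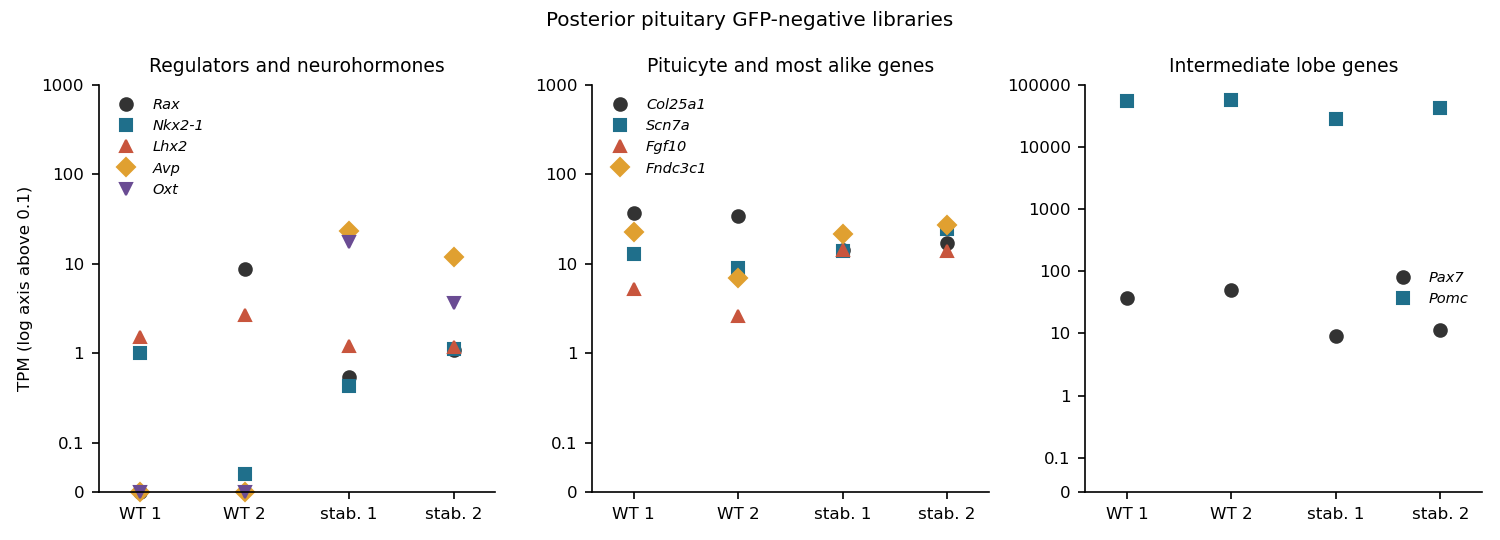
TPM in the 4 GFP-negative libraries of posterior pituitary (2 WT, 2 stabilized), on an axis that is logarithmic above 0.1 TPM, for the transcription factors and neurohormones (left), for pituicyte genes and genes most alike in pattern (middle) and for 2 intermediate lobe genes (right). Avp and Oxt are at 0 in both WT libraries, Rax is highest in WT replicate 2, and Pomc lies between 27436 and 55689 TPM.

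The genes most like each of the 8 over the 24 sorted libraries were listed by Pearson correlation of log2(TPM + 1) among 9779 genes that reached a mean of 10 TPM in some group. These correlations describe 24 libraries of 12 groups that share tissue, sort and depth, and are not tests. Without the library with conflicting labels, r of the 40 pairs listed moved by at most 0.01 and the most alike gene of each of the 8 was the same. Avp and Oxt were each other's most alike gene (r = 0.923, Spearman rho 0.895), which includes reads split between them. The next for Avp were Fgf10 (r = 0.807), Fndc3c1 (0.716) and Scn7a (0.695), and for Oxt Fgf10 (0.77). Nkx2-1 was most like Fndc3c1 (r = 0.827, rho 0.387). Lhx2 was most like Grik1 (r = 0.952, rho 0.671), Pax7 (0.939) and Gulo (0.933). The gene most like Rax was Necab3 (r = 0.944, rho 0.642), and this rests on WT replicate 2, where Necab3 was at 36.4 TPM against at most 2.34 TPM elsewhere. Gfap was most like Gjc3 (r = 0.969) and S100b most like Adam11 (r = 0.974), while Vim was most like S1pr1 (r = 0.914) and Qk (0.906).

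The second comparison asked whether beta-catenin stabilization in ECs moved the 8 genes in GFP-negative cells. In posterior pituitary Avp went from 0 to 645 reads (at least 271-fold higher), Oxt from 0 to 385 (at least 162-fold) and Gfap from 0 to 111 (at least 46.6-fold). None passed edgeR's threshold, with adjusted p of 0.471, 0.467 and 0.197, beside 0.595% of all genes called. The WT and stabilized libraries did not overlap for these 3 genes, with 2 libraries on each side, and 15.1% of genes were likewise higher in both stabilized libraries in TPM. Lhx2 was at 450 and 448 reads (log2 difference 0.31, SE 2.24), and its direction depended on the unit, being lower in both stabilized libraries in TPM (1.195 and 1.17 against 1.5 and 2.68) and higher in normalized CPM (9.53 and 10.1 against 7.61 and 8.18). Rax was at 197 and 103 reads, and Vim differed by 0.88 (SE 0.53, adjusted p 0.603).

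Other markers moved with the genotype in the same posterior pituitary libraries. Of 7 mural cell markers 4 were called higher in stabilized libraries (0.595% of all genes called), their sum being 20.9 and 5.07 TPM in WT and 45.9 and 27.5 TPM in stabilized libraries. Erythrocyte markers summed to 190 and 9.37 TPM in WT and to 2675 and 1147 TPM in stabilized libraries, with 1 of 5 called higher. The intermediate lobe sum was 54208 and 56472 TPM in WT and 27731 and 41589 TPM in stabilized libraries, and the neuron markers, with Pcp2 at 0 in all 4, were at 493 and 585 against 406 and 300 TPM. The part of these in the Avp, Oxt and Gfap values was not tested. None of the 7 lists of related genes had a call by edgeR in this contrast, with 0 to 2 genes a list at an unadjusted p under 0.05, and DESeq2 called 1 developmental regulator and 1 intermediate filament gene higher, beside 3.88% of all genes.

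In anterior pituitary GFP-negative cells S100b went from 2 to 58 reads (log2 difference 4.99, SE 1.93, adjusted p 0.827) and Vim differed by 0.99 (SE 0.53, adjusted p 0.827), beside 0.0281% of all genes called. Of the 58 S100b reads 47 were in stabilized replicate 1. Gfap went from 40 to 3 reads and Nkx2-1 from 20 to 2, while Lhx2 went from 1 to 11. In cerebellum Vim differed by -1.21 (SE 0.53, adjusted p 0.492), Gfap by 0.54 (SE 1.59) and S100b by 0.47 (SE 1.29), beside 0.717% of all genes called. Over the 3 tissues edgeR called 0 of 24 gene-by-tissue values, 5 had an unadjusted p under 0.05 and DESeq2 called 1, Gfap in posterior pituitary (adjusted p 0.0122), beside 3.88% of all genes there, 1.33% in anterior pituitary and 4.23% in cerebellum. Tests of whether the genotype difference itself differed between tissues, in GFP-negative and GFP-positive cells, called 0 of 48 values with edgeR, with 6 at an unadjusted p under 0.05 and 2 called by DESeq2, Gfap between posterior and anterior pituitary in GFP-negative cells (adjusted p 0.0189) and Gfap between posterior pituitary and cerebellum in GFP-positive cells (0.000591). Over all genes these 6 tests called 0.0562%, 0.881% and 0.342% in GFP-negative and 0.127%, 0.965% and 0.759% in GFP-positive cells, for posterior against anterior pituitary, posterior pituitary against cerebellum and anterior pituitary against cerebellum. With DESeq2 the shares were 1.1%, 5.36% and 3.11%, and 2.08%, 5.6% and 4.71%. Without the library with conflicting labels edgeR called 1 of the 48, Gfap in GFP-positive cells between posterior pituitary and cerebellum, beside 1.3% of genes. The log2 difference of differences for Gfap between posterior and anterior pituitary was 12.39 (SE 3.21, adjusted p 0.443).

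The third comparison set GFP-positive cells beside GFP-negative cells of the same tissue, to show on which side of the sort each transcript lay. Vim lay on the GFP-positive side in both pituitary lobes. Lhx2 and Rax lay on the GFP-negative side of posterior pituitary by their counts. Gfap and S100b lay on the GFP-negative side of cerebellum. These are different fractions of the same dissections, and EC markers were at most 7.06 TPM in the posterior GFP-negative cells. The 7 mural markers summed to 47.4 to 157 TPM in GFP-positive and 5.07 to 45.9 TPM in GFP-negative cells of posterior pituitary. In anterior pituitary their sums were 171 to 251 and 19.3 to 92.4 TPM. Microglia and macrophage markers overlapped between the fractions of both lobes. The part of these cells in the Vim values was not tested.

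**Figure D3:**
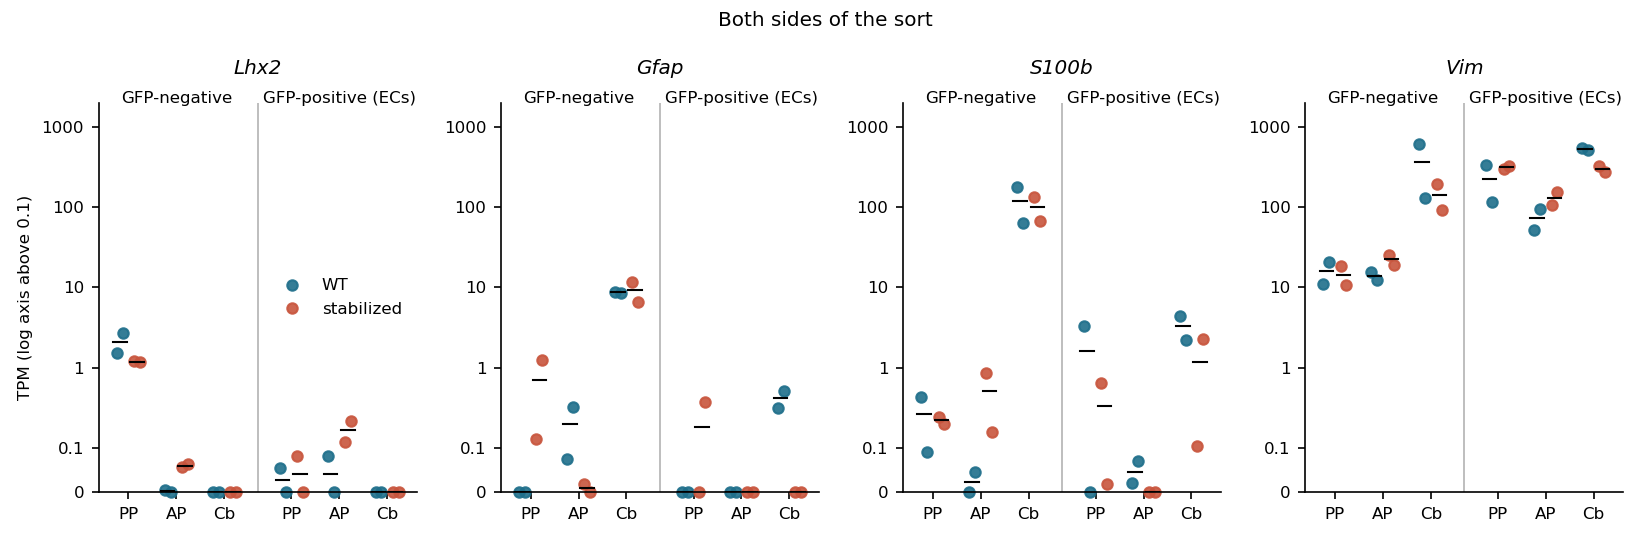
TPM of Lhx2, Gfap, S100b and Vim in GFP-negative (left of each panel) and GFP-positive cells (right) of posterior pituitary (PP), anterior pituitary (AP) and cerebellum (Cb), on an axis that is logarithmic above 0.1 TPM. Points are libraries (WT blue, stabilized red) and black lines are means of 2. Vim rises from 10.6 to 20.6 TPM in posterior GFP-negative cells to 117 to 330 TPM in the GFP-positive ones, and Lhx2 is below 0.1 TPM in all 4 posterior GFP-positive libraries.

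Vim stood at 330 and 117 TPM in WT and 299 and 323 TPM in stabilized GFP-positive cells of posterior pituitary. The log2 difference from GFP-negative cells was 3.64 (SE 0.58, adjusted p 0.000244) in WT and 4.00 (SE 0.59, adjusted p 0.000172) in stabilized mice, beside 14.5% and 10.5% of all genes called. In anterior pituitary Vim was at 51.4 and 95.0 TPM (WT) and 105 and 153 TPM (stabilized) in GFP-positive cells. The difference was 2.17 (SE 0.55, adjusted p 0.0134) in WT, beside 11.3% of genes called, and 0.0783 was its adjusted p without WT GFP-negative replicate 1. In stabilized mice it was 1.94 (SE 0.55, adjusted p 0.0314), beside 8.29% of genes, and 1.24 (adjusted p 0.319, not called) without the library with conflicting labels. In cerebellum Vim was at 541 and 511 TPM (WT) and 324 and 275 TPM (stabilized) in GFP-positive cells, and did not differ from GFP-negative cells beyond the spread, by 0.30 (SE 0.53, adjusted p 0.848) in WT and 0.92 (SE 0.53, adjusted p 0.267) in stabilized mice.

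Gfap had 0 reads in both stabilized cerebellum GFP-positive libraries against 1461 in GFP-negative ones, at least 907-fold lower (adjusted p 0.0049), beside 17.2% of all genes called. In WT cerebellum GFP-positive cells it was at 0.316 and 0.514 TPM. S100b was at 4.38 and 2.20 TPM (WT) and 0.105 and 2.27 TPM (stabilized) in GFP-positive cells of cerebellum. It was lower than in GFP-negative cells by -5.30 (SE 1.55, adjusted p 0.0324) in WT, beside 11.3% of genes called, and by -7.12 (SE 1.69, adjusted p 0.00654) in stabilized mice. The WT call was lost with an offset for effective gene length (adjusted p 0.0628), and without either WT GFP-positive library.

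In posterior pituitary GFP-positive cells no read of Rax was found in any of 4 libraries, against 197 WT reads in GFP-negative cells (at least 57.5-fold lower, adjusted p 0.216). Lhx2 had 6 WT reads against 450, a scaled ratio of 0.0152 (adjusted p 0.165). Avp was at 3.19 and 0 TPM (WT) and 2.12 and 0 TPM (stabilized), and Oxt at 2.87, 0, 0.449 and 1.78 TPM. So the WT posterior pituitary library with Avp and Oxt reads was a GFP-positive one, replicate 1. S100b was at 3.25 TPM in that library and at 0, 0.642 and 0.019 TPM in the other posterior GFP-positive ones. Nkx2-1 was likewise at 0.709 TPM in it and at 0.072, 0.045 and 0 TPM in the others. The same library had the highest intermediate lobe sum of the 4, 3327 TPM against 330 to 803 TPM, and Fgf10 at 8.46 TPM against at most 0.245 TPM. The part of such RNA in its Avp, Oxt, S100b and Nkx2-1 values was not tested. Against GFP-negative cells Nkx2-1 had 37 reads against 87 in WT and 2 against 104 in stabilized posterior pituitary.

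Between genotypes in GFP-positive cells edgeR called 0 of 24 values, beside 0.979% of all genes in posterior pituitary, 0.394% in anterior pituitary and 0.618% in cerebellum. At an unadjusted p under 0.05 there were 3, and DESeq2 called 2, Gfap in posterior pituitary (adjusted p 0.0441) and Gfap in cerebellum (0.0236), beside 5.69% of all genes in posterior pituitary, 3.05% in anterior pituitary and 5.09% in cerebellum. Gfap in posterior pituitary had 47 reads in 1 stabilized library and none in the other 3. In cerebellum it had 95 WT reads and no stabilized read, at least 26-fold lower (edgeR adjusted p 0.229). Vim differed by 1.23 (SE 0.53, adjusted p 0.392) in posterior pituitary, 0.76 (SE 0.53, adjusted p 0.765) in anterior pituitary and -0.59 (SE 0.53, adjusted p 0.839) in cerebellum. Without the library with conflicting labels the count stayed at 0.

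Between tissues the WT GFP-positive cells differed in Vim, which was lower in anterior pituitary than in cerebellum by -3.01 (SE 0.57, adjusted p 0.00351), beside 3.89% of genes called. Without the library with conflicting labels, which is in neither group but in the same fit, Gfap and S100b were called too, beside 4.1% of genes. Posterior pituitary lay between, 1.44 (SE 0.54, adjusted p 0.301) above anterior pituitary and -1.57 (SE 0.54, adjusted p 0.153) below cerebellum, and neither of these passed, beside 0.712% and 3.09% of genes called. In WT GFP-positive cells Vim was at 511 to 541 TPM in cerebellum, 117 to 330 TPM in posterior and 51.4 to 95.0 TPM in anterior pituitary. edgeR did not tell posterior pituitary from either of the others.

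The RiboTag libraries showed the same genes in cortex and choroid plexus, where 6 of the 8 passed the filter on low counts. Rax reached at most 0.127 TPM and Nkx2-1 at most 0.539 TPM. In WT input Lhx2, a factor of cortical development, was at 7.51 and 10.2 TPM in cortex and 0.174 and 0.080 TPM in choroid plexus, a log2 difference of 4.27 (SE 0.83, adjusted p 0.00114). Gfap was at 46.8 and 66.8 against 0.426 and 1.04 TPM, a difference of 4.08 (SE 0.53, adjusted p 3.46e-05), and S100b at 77.4 and 70.3 against 0.724 and 0.591 TPM, a difference of 4.13 (SE 0.24, adjusted p 6.1e-08). Vim was lower in cortex, at 9.53 and 11.9 against 11.0 and 15.8 TPM, and at 13.8 and 14.5 against 50.1 and 64.1 CPM, a difference of -2.25 (SE 0.23, adjusted p 4.89e-06). That made 4 of 6 called, beside 37.9% of all genes.

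Vim was enriched in the bound RNA of WT cortex, at 133 and 121 TPM against 9.53 and 11.9 TPM in input, a log2 difference of 3.16 (SE 0.24, adjusted p 1.89e-06), beside 11.6% of genes called. Over the 4 input and 4 bound cortex libraries of both genotypes, the 10 EC markers went from 16.6 to 40.8 TPM in input to 388 to 759 TPM in bound RNA, and the 9 microglia and macrophage markers from 22.4 to 62.1 TPM to 872 to 2191 TPM. The part of the latter in the Vim difference was not tested. S100b was lower in bound RNA by -0.97 (SE 0.20, adjusted p 0.00545), under 2-fold. In WT choroid plexus S100b was lower in bound RNA by -1.15 (SE 0.25, adjusted p 0.00619), beside 15.3% of genes called, and this call was lost without WT input replicate 1. Gfap RNA stayed in the bound fraction of cortex at 67.3 and 59.8 TPM.

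Avp and Oxt in cortex were read mainly in 1 stabilized replicate. Avp in input was at 6.58 and 0.983 TPM (WT) and 40.8 and 0.293 TPM (stabilized), and Oxt at 0.842, 0, 85.7 and 0 TPM. In bound RNA Avp was at 0, 0.469, 23.9 and 1.74 TPM and Oxt at 0, 0, 18.6 and 0 TPM. Both were thus high in input and bound RNA of stabilized replicate 1 and low or at 0 elsewhere. Rax had 8 and 6 reads in input and bound RNA of that replicate and 0 in the other cortex libraries. Nkx2-1 had 46 reads in its input and 0 in its bound RNA, against 18, 4 and 4 reads in the other cortex inputs. The log2 difference between genotypes in input was 3.80 (SE 1.87, adjusted p 0.305) for Avp and 7.90 (SE 2.86, adjusted p 0.154) for Oxt. Without that replicate the differences were -2.34 and -4.47. None of 6 genes was called between genotypes in cortex input by edgeR, beside 4.42% of all genes, or by DESeq2, beside 6.4%, and 3 had an unadjusted p under 0.05.

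**Figure D4:**
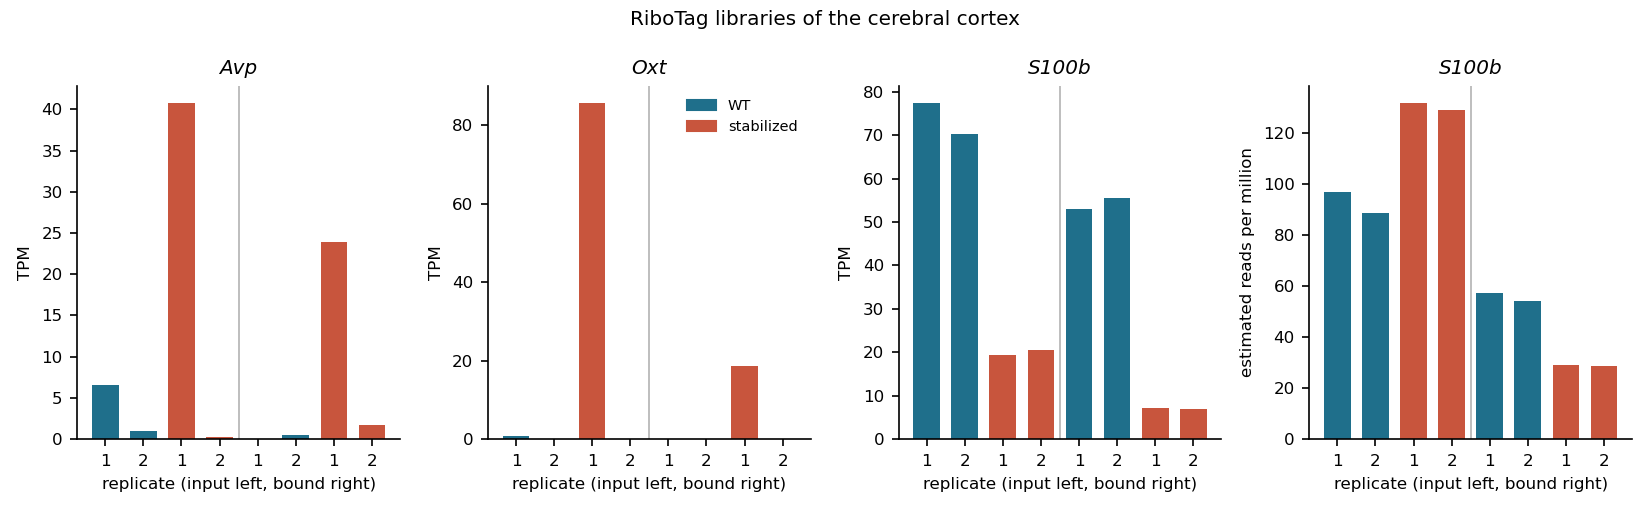
Avp and Oxt (TPM) and S100b (TPM and CPM) in the 8 cortex RiboTag libraries, as bars from 0, one per library (WT blue, stabilized red). Avp and Oxt are high in stabilized replicate 1 of input and bound RNA, and S100b in input is lower in stabilized libraries by TPM but higher by reads.

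S100b, Gfap and Vim gave different answers by unit in cortex input. S100b was at 77.4 and 70.3 TPM in WT and 19.3 and 20.6 TPM in stabilized libraries, but at 97.0 and 88.7 against 132 and 129 CPM. The effective length estimated for the gene was 640 and 730 bases in WT and 1439 and 1339 bases in stabilized libraries, although it has 1 annotated transcript. Gfap was at 46.8 and 66.8 TPM in WT and 30.0 and 24.5 TPM in stabilized input, but at 96.4 and 128 against 141 and 120 CPM, with effective lengths of 1053 and 1106 against 988 and 1044 bases. Vim was at 9.53 and 11.9 against 5.83 and 6.87 TPM, but at 13.8 and 14.5 against 22.6 and 18.1 CPM. By their means these 3 genes were thus lower in stabilized input in TPM and higher in CPM. In bound RNA S100b was lower in both units, 53.0 and 55.5 against 7.27 and 6.87 TPM, and 57.3 and 54.3 against 29.0 and 28.5 CPM. edgeR called this last difference, -1.01 (SE 0.20, adjusted p 0.00481), 1 of 6 genes beside 13.3% of all genes, and it fell under 2-fold with RLE scaling, with DESeq2 or without any of the 4 libraries. DESeq2 called Oxt instead (adjusted p 0.000569), beside 17% of genes, where 1 stabilized library held its reads. Vim differed by 0.75 (SE 0.22, adjusted p 0.0315), under 2-fold.

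In choroid plexus, Vim was at 47.7 and 59.0 TPM in WT and 93.6 and 102 TPM in stabilized bound RNA, a log2 difference that rounds to 1 (SE 0.22, adjusted p 0.0207) that did not reach 2-fold. Gfap was at 2.40, 9.56, 2.83 and 12.1 TPM in the same order and overlapped. None of 6 genes was called between genotypes by edgeR in input, beside 0.0822% of all genes, or in bound RNA, beside 4.14%, and at an unadjusted p under 0.05 there were 2 and 1. DESeq2 called 0 in both, beside 0.34% and 7.86% of genes.

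The last comparison used open chromatin of GFP-positive cells. ATAC-seq peaks were called in each library, and a gene was counted when a peak overlapped it or lay within 1000 bp of its start. Of the 8 genes, Rax, Lhx2 and Vim had a peak in all 12 libraries, S100b in 9, Gfap in 6, and Nkx2-1, Avp and Oxt in none. Counted to 5000 bp from the start, Avp and Oxt each had a peak in 2 of the 12 libraries and the other counts stayed as they were. Of all protein-coding genes 50.5% had a peak in all 12 libraries and 30.2% in none. Rax and Lhx2, at most 0.217 TPM in ECs, were thus among genes with open sites, and at Rax the site lay 4.75 to 4.79 kb from the start, inside the gene.

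**Figure D5:**
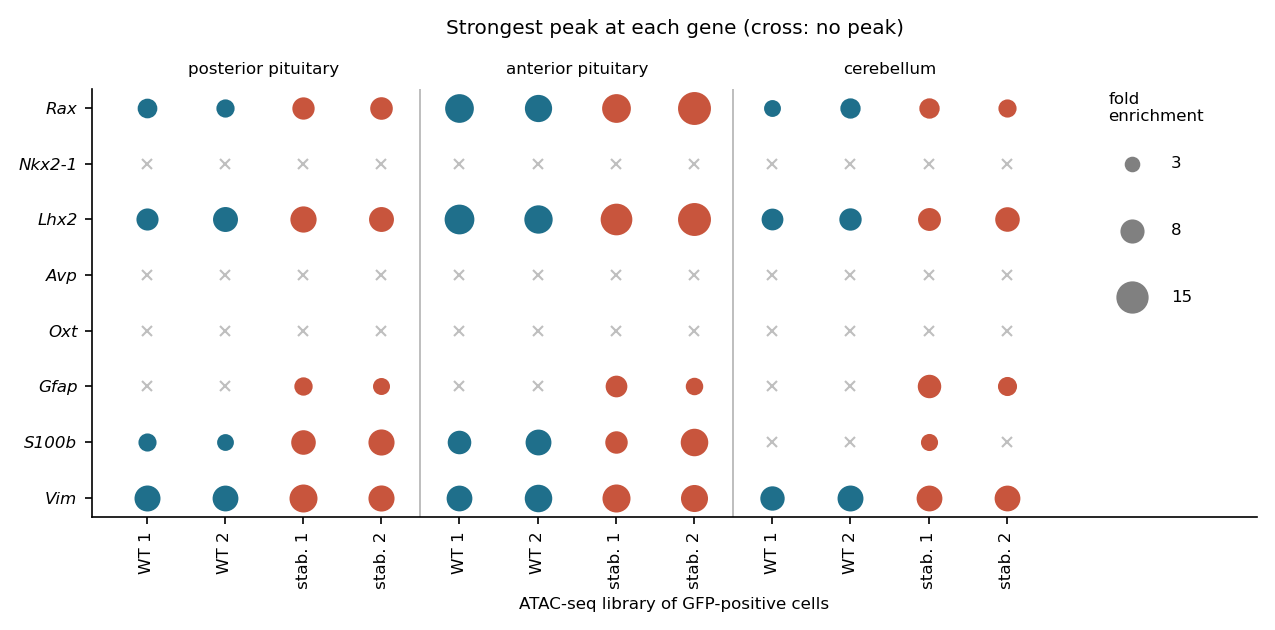
Strongest ATAC-seq peak at each of the 8 genes (rows) in the 12 GFP-positive libraries (columns). Circle area is the fold enrichment of the peak over local background, and a cross is no peak. Gfap has a peak in all 6 stabilized libraries and in no WT library, while Nkx2-1, Avp and Oxt have none.

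Gfap was the one gene of the 8 whose peak followed genotype. A peak was called in both stabilized libraries of cerebellum (fold enrichment 7.53 and 4.75), anterior pituitary (6.34 and 3.90) and posterior pituitary (4.34 and 3.66), and in none of the 6 WT libraries, also without the filter on peaks. Of 21885 protein-coding genes, 11 (0.0503%) had a peak in all 6 stabilized and no WT library, and none the reverse. By peak region, 0.237 to 0.373% of the regions of a stabilized library (100 to 108) were in all 6 stabilized and no WT library, and 0.124 to 0.286% of those of a WT library (54 to 59) were the reverse. The -log10 q of the Gfap peak ran from 4.29 to 33.2, and 5 libraries kept it at a stricter limit of 5. Filtered peaks numbered 36358 to 52394 in stabilized and 25684 to 60243 in WT libraries. In the same GFP-positive cells Gfap RNA was at 0 in 5 of the 6 stabilized libraries and at 0.367 TPM in the other one.

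S100b had an intronic peak that all 9 libraries share at chr10:76258085-76258285, with a fold enrichment of 3.56 to 10.7, in all 8 pituitary libraries and 1 of 4 cerebellum libraries. At Lhx2 a peak in the untranslated first exon of another annotated Lhx2 transcript, with its summit 244 to 291 bases from that transcript's start and 11.7 to 11.8 kb from the first start of the gene, was present in all 12 libraries, with a fold enrichment of 6.39 to 15.7. A peak at the first start was present in all 4 anterior pituitary libraries, in WT posterior pituitary replicate 1 and in stabilized posterior pituitary replicate 2. The Vim start lay in a peak in all 12 libraries.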

How the data were processed

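The 24 sorted and 16 RiboTag RNA-seq libraries were single-end reads of amplified cDNA (NuGEN Ovation Ultralow V2), and the 12 ATAC-seq samples were GFP-positive cells only. For RNA the authors deposited Salmon 0.10.2 output per transcript of Ensembl 92 (GRCm38), with sequence, GC and position bias corrected: the estimated count, which is not normalized, TPM, which is scaled within a library, and the effective length. kallisto 0.44.0 is also named in the submitters' processing notes. For ATAC-seq the authors deposited MACS2 2.1.1.20160309 peak lists, called in each library on Bowtie2 2.3.2 alignments, with fold enrichment (a ratio to local background), -log10 q and a score, not used here. The study's filter was applied here (fold enrichment over 2, -log10 q over 2).

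Estimated counts and TPM were summed per gene with GENCODE M21, which lacked transcripts holding 0.0588 to 0.385% of reads. Rounded sums were tested with edgeR 4.0.16 (quasi-likelihood, TMM, filterByExpr, R 4.3.3), 1 coefficient per group, with all 24 sorted libraries (21343 genes) or all 16 RiboTag libraries in a fit. The study used EBSeq, not used here. A gene was called at a Benjamini-Hochberg adjusted p under 0.05 over all genes tested and at least 2-fold. SE is the absolute log2 difference over the root of F. A fold against a group at 0 is a bound from 3 reads over the group, and intervals cover counting error only. DESeq2 1.42.0, RLE scaling, no filter, a replicate block, a length offset, fits of the compared groups alone and leaving out each library were the alternatives. A library left alone in its group was then assumed to vary like the others. The contrasts over both genotypes, all comparisons without the library with conflicting labels, the permutation test and the RiboTag genotype contrasts were added after the data were seen. The edgeR step was tested on simulated counts for WT posterior against anterior pituitary GFP-negative cells. It called 0 of 50 genes changed 2-fold, 6 of 50 changed 4-fold, 12 of 50 changed 16-fold and 30 of 50 changed 64-fold. A gene that was not called may thus still differ by a large fold.

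The 8 genes, the other lists and the markers were chosen with earlier results of these data known. Named genes are the 8 in every comparison, up to 4 called genes per list and direction with the largest change in the WT posterior contrasts, and the genes of highest correlation. Replicate numbers did not pair the sorted samples (66 pairs of groups, correlation of deviations -0.028 to 0.091). The RiboTag libraries were not checked in this way. The paper set aside part of the homogenate as input before precipitation, so input and bound RNA of a replicate may be paired. Bound and input RNA were tested here without a pairing. Figures were drawn with matplotlib 3.10.9. The sequence of the Gfap peak is not reported here.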

Additional observations from a re-analysis of the deposited data

Results flagged for a closer look

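Of 34 sets of 4 libraries (both genotypes of a tissue and fraction, with at least 1 TPM in the highest), 7 held an outlying library. Its gap to the nearest other, as a share of the range, exceeded Dixon's critical value. That value is for 4 independent, normally distributed values. The sets pooled both genotypes in TPM and some held ties at 0, so no chance rate can be given for the count. Rax in posterior pituitary GFP-negative cells was at 8.76 TPM in WT replicate 2, the next library being at 1.10 TPM. Gfap in the same cells was at 1.26 TPM in stabilized replicate 2, the next at 0.130 TPM. Vim in posterior pituitary GFP-positive cells was lowest in WT replicate 2, at 117 TPM, the next at 299 TPM. The other 4 were Avp and Oxt, which share reads, and all lay in stabilized cortex replicate 1, so they were not independent. There Avp was at 40.8 TPM in input (next 6.58 TPM) and 23.9 TPM in bound RNA (next 1.74 TPM), and Oxt at 85.7 TPM in input (next 0.842 TPM) and 18.6 TPM in bound RNA (next 0 TPM). Without WT replicate 2 the both-genotype comparison of posterior pituitary with cerebellum still called Lhx2 (adjusted p 0.0122).

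In normalized CPM, for 2 genes the genotypes moved in opposite directions in different tissues with no overlap of the 2 and 2 libraries, as did 15.4% of all genes tested in GFP-negative and 15.7% in GFP-positive cells. Gfap in GFP-negative cells was at a mean of 2.51 in stabilized against 0 in WT posterior pituitary, at 0.056 against 0.549 in anterior pituitary and at 52.1 against 35.9 in cerebellum. Vim in GFP-positive cells was at 589.6 against 251.7 in posterior pituitary and at 497.8 against 748.2 in cerebellum. In TPM the Gfap libraries overlapped in cerebellum and the Vim libraries in posterior pituitary, but such opposite moves were still found for Gfap and also Lhx2 in GFP-negative cells (12.2% of genes), both between posterior and anterior pituitary, and for Vim in GFP-positive cells (14.4%), between anterior pituitary and cerebellum. edgeR's test of these differences between tissues passed for neither gene, with adjusted p of 0.443 for Gfap between posterior and anterior pituitary, 0.674 for Gfap between anterior pituitary and cerebellum, and 0.339 for Vim between posterior pituitary and cerebellum. DESeq2 called the first of these (adjusted p 0.0189).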

How the results depend on the processing

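With DESeq2 in place of edgeR, the calls among the 8 genes went from 3 to 4 for WT posterior pituitary against cerebellum, from 2 to 3 for WT anterior and for stabilized posterior pituitary against cerebellum, from 0 to 1 for WT posterior against anterior pituitary and for both genotypes together, from 0 to 1 for genotype in GFP-negative cells, from 0 to 2 for genotype in GFP-positive cells, from 1 to 4 for WT GFP-positive cells between tissues, from 0 to 2 for differences of the genotype effect, from 7 to 9 for GFP-positive against GFP-negative cells (Gfap in WT anterior pituitary, adjusted p 0.0255, and S100b in stabilized anterior pituitary, 0.00449, added) and from 6 to 8 for WT RiboTag (Oxt, bound against input, in cortex and choroid plexus, 0.0103 and 0.0137, added). Those Oxt calls rest on 9 input against 0 bound reads in cortex and 6 against 0 in choroid plexus. DESeq2 also called a larger share of all genes in all 30 sorted contrasts (5.92% in place of 1.04% for WT posterior against anterior pituitary). With no filter on low counts the corresponding counts were 2 (WT posterior against anterior pituitary), 2 (genotype, GFP-negative), 2 (genotype, GFP-positive), 7 (GFP-positive between tissues), 8 (differences of effects), 11 for GFP-positive against GFP-negative cells (7 before), 11 for WT RiboTag (6 before) and 7 for genotype in RiboTag (1 before), the share of all genes being larger in 25 of 30 sorted contrasts and 2 of 7 RiboTag contrasts. Fits of only the groups compared gave 3 for stabilized posterior against anterior pituitary (0 before), beside 2.04% of all genes in place of 0.0562%. They gave 5 for stabilized posterior pituitary against cerebellum (2 before) and 1 for posterior against anterior pituitary of both genotypes. The share of all genes was larger with such fits in 14 of 30 sorted contrasts, and ran from 0 to 28.7% in place of 0.0281 to 17.2%. RLE scaling gave 0 for genotype in RiboTag. Leaving out 1 library of the groups compared gave 1 to 3 for stabilized anterior pituitary against cerebellum (1, S100b, without stabilized anterior pituitary GFP-negative replicate 2), 1 to 2 for GFP-positive cells between tissues (3 without stabilized anterior pituitary GFP-positive replicate 2, which is in neither group but in the same fit), 0 to 1 for differences of effects, 6 to 7 for GFP-positive against GFP-negative cells and 0 to 2 for genotype in RiboTag. As libraries were left out, the S100b log2 difference of WT posterior pituitary GFP-positive cells ran from -6.301 to 4.176 against GFP-negative and from -3.867 to 5.621 against anterior pituitary GFP-positive cells, negative only without WT posterior pituitary GFP-positive replicate 1. The genotype difference in cortex input ran from -2.345 to 5.989 for Avp and from -4.471 to 12.18 for Oxt, negative only without stabilized cortex input replicate 1. A replicate block gave 3 calls for genotype in RiboTag (Oxt in cortex input and bound RNA added, adjusted p 0.0163 and 0.0104) and changed no other count. Replicate numbers did not pair the sorted samples, and their pairing in RiboTag was not checked. The causes were not tested. Of 32 called values, 31 remained with DESeq2, 31 with RLE scaling and 31 with a length offset. At the depth of these libraries 3 reads amount to 0.0799 to 0.468 CPM, below which a transcript could not be seen.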

Other observations

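Over both genotypes, 3 of the 10 further pituicyte and tanycyte genes were called higher and 1 lower in posterior pituitary than in cerebellum GFP-negative cells, with a median log2 difference of 2.97 against 0.01 for all genes, beside 14.4% of all genes called. Against anterior pituitary 2 of the 10 were called higher and none lower, with a median of 0.34, beside 1.94% of all genes called. All 12 astroglial genes were called lower than in cerebellum, with a median of -6.70, and 2 were called higher than in anterior pituitary. Of 10 prohormone-processing genes 7 were called higher and 1 lower than in cerebellum.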
